A study of Mus musculus with 24 samples.

Results

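The genes of oxidative phosphorylation were followed in skin and in dorsal root ganglia (DRG), which hold the cell bodies of sensory neurons, of mice given a rosacea-like skin inflammation. They were chosen by name among the protein-coding genes: symbols that begin with Nduf, Uqcr, Atp5 or Cox4 to Cox8, the succinate dehydrogenase genes Sdha, Sdhb, Sdhc and Sdhd, and the protein-coding genes of mitochondrial DNA. This gave 108 of the 45777 genes in the table, of which 21949 are protein-coding. Nuclear DNA holds 95 of them and mitochondrial DNA 13. By role, 45 are counted with complex I, 4 with complex II, 9 with complex III, 23 with complex IV and 19 with the ATP synthase, and 8 encode assembly factors of complex I. The 45 include Ndufb4b and Ndufb4c, 2 copies of the subunit gene Ndufb4. How the counting treated reads shared with Ndufb4 is not given.

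The data were polyA RNA sequencing libraries of 4 groups with 6 libraries each: model skin, control skin, model DRG and control DRG. All animals were female BALB/c mice of 6 weeks. Model animals had LL37, a human antimicrobial peptide, injected into the skin at 320 µM in 40 µL, 2 times a day over 2 days. What control animals were injected with is not given, nor when skin was taken. The study also gave gabapentin by mouth, but no label says to which animals, so any part of the drug in a difference between model and control cannot be told apart from that of LL37. Since no label ties a library to an animal of its own, the p-values measure the spread between these libraries, which may be technical. Total counts ran from 45238735 to 68396846 per library. Markers of the labelled tissue were as labelled: in control skin 6 of 6 keratinocyte markers were higher than in control DRG, and 11 of 11 sensory neuron markers were lower.

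Oxidative phosphorylation is the last stage of cellular respiration, in the inner mitochondrial membrane. Complexes I and II pass electrons from NADH and succinate to ubiquinone, complex III passes them on to cytochrome c and complex IV to oxygen, and the ATP synthase uses the proton gradient built by complexes I, III and IV. Mitochondrial DNA encodes core subunits of all of these except complex II, and the nucleus encodes the rest. Several subunits of complex IV exist in a ubiquitous form and in a form found mainly in muscle or other tissues.

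Promoters of the nuclear genes are shown first, since many genes of this system are known to be bound by NRF1 and by the ETS factor GABP. The RefSeq table (build GRCm38.p6) held a promoter of 300 bases, from 250 before to 50 after the start, for 77 of the 95 nuclear genes. Both strands were searched for GCGCANGC, the core of the NRF1 site, for CCGGAAG, an ETS core, for the E-box CANNTG and for a MEF2 core. The NRF1 core stood in 24 of the 77 promoters, which is 31.2%, against 10.1% of 27025 promoters of all genes and 13.4% of 17519 promoters of protein-coding genes. The ETS core stood in 18 of them, 23.4%, against 9.12% of all and 11.9% of protein-coding promoters, and 35 held at least 1 of these 2 cores. The E-box stood in 71.4% against 72.1% of all promoters, and the MEF2 core in 2.6% against 3.7%. Among complexes, 3 of 3 promoters of complex II, 13 of 33 of complex I and 9 of 15 of the ATP synthase held an NRF1 or ETS core. So did 3 of 5 of complex III, 4 of 7 of complex I assembly factors and 3 of 14 of complex IV. Of the promoters of tissue or condition isoforms of complex IV, 0 of 4 did. The share of all promoters with either core was not computed, so no difference between complexes is read from these counts. A match is a run of letters and not a shown binding site, and matches on the 2 strands can overlap.

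Sdhd and Atp5h are printed because they were the members called in skin, Cox6a1 because it is a ubiquitous form with matches to both cores, and Cox7a1 because it is a muscle form without either core. Each runs 5′ to 3′ in the direction of the gene. Capitals mark the NRF1 core and the ETS core in the promoters of Sdhd (chr9:50603800-50604099, minus strand), Atp5h (chr11:115419870-115420169, minus strand) and Cox6a1 (chr5:115348909-115349208, minus strand), and the E-box in that of Cox7a1 (chr7:30183921-30184220, plus strand).
Sdhd: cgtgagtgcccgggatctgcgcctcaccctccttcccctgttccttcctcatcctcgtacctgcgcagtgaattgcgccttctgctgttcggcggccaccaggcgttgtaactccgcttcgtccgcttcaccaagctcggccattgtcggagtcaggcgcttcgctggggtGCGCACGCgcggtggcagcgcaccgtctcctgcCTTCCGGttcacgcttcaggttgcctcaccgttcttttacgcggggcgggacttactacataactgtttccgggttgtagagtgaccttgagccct
Atp5h: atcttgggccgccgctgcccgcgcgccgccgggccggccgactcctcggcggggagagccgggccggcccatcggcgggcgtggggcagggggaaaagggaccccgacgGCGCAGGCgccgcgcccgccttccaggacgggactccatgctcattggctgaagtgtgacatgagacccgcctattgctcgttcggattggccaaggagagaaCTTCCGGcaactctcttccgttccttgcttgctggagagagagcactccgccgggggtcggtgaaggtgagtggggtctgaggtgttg
Cox6a1: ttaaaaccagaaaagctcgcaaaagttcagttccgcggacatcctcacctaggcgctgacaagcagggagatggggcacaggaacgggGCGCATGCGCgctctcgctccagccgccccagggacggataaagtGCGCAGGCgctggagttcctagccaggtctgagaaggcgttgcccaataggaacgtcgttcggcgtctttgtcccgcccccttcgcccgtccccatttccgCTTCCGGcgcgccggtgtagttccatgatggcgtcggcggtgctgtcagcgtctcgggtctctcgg
Cox7a1: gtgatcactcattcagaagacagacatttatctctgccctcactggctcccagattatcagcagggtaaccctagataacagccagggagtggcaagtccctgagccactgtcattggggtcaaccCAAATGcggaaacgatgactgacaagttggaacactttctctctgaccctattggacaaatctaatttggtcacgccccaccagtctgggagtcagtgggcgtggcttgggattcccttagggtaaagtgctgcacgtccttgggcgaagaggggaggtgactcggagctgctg

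In inflamed skin almost no gene of the system passed the test. Of the 108 members 106 had enough counts, and Sdhd rose and Atp5h fell in model skin, 2 genes in all, while 19.9% of the 19526 genes tested in skin were called, 14.1% higher and 5.82% lower. Cox8c had no count in any library and Cox7b2 none in skin, so neither was tested. Genes were called at a Benjamini-Hochberg adjusted p under 0.05 over all genes tested, with edgeR's quasi-likelihood F test. For 0 of the 106 members did the model and control libraries stand apart without overlap, against 7.25% of all genes that lay wholly higher in model skin and 1.44% wholly lower. As bulk tissue was sequenced, fewer cells of a type and less RNA per cell cannot be told apart.

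Sdhd, a membrane anchor subunit of complex II (chr9:50596340-50603849), had 140.2, 76.98, 82.73, 100.3, 65.54 and 82.87 CPM (counts per 1000000 counts of the library after TMM scaling) in the 6 model skin libraries, against 63.91, 78.38, 54.36, 64.51, 47.93 and 54.37 CPM in the 6 control skin libraries. The groups overlapped, with model library 1 far above the rest and model libraries 2 and 5 below the highest control. The log2 fold change was 0.59 ± 0.18 (SE, n = 6 each), a 1.51-fold rise (edgeR adjusted p = 0.0338). Its partners in complex II did not pass: Sdha, which holds the flavin, had a log2 fold change of 0.34 (adjusted p = 0.178), the iron-sulfur subunit Sdhb 0.022 (adjusted p = 0.934) and the other anchor Sdhc 0.20 (adjusted p = 0.265).

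Without model library 1, Sdhd had a log2 fold change of 0.43 and an edgeR adjusted p of 0.0551. The call was also lost on leaving out model library 4 or any of control libraries 1, 3, 4, 5 and 6, with adjusted p between 0.0511 and 0.0783. Adipocyte markers moved the same way: 9 of 9 rose in model skin, and their summed level ran from 2276 to 16477 CPM in model skin and from 1746 to 2284 CPM in control skin. Plin1, which coats lipid droplets, reached 400.1 CPM in model skin and at most 47.37 CPM in control skin. With the adipocyte marker level as a covariate the log2 fold change of Sdhd was -0.007 (adjusted p = 0.996). The loss was not particular to Sdhd, since that fit called 7 of 19526 genes (0.0358%), against 3892 without the covariate. The adipocyte marker level was itself higher in most model libraries, so what this fit assigns to it and to the model cannot be told apart. Macrophage markers also rose in 8 of 8 cases and endothelial markers in 4 of 5, while 0 of 6 keratinocyte markers were called. The part of adipocytes or of other cells in the result was not tested.

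Atp5h, subunit d of the peripheral stalk of the ATP synthase (chr11:115415691-115419919), had 141.8, 125.5, 135.7, 122.9, 120.2 and 120.6 CPM in model skin, against 138.5, 149.8, 162.0, 139.9, 145.2 and 157.3 CPM in control skin. The groups overlapped, since model library 1 stood above the 2 lowest controls. The log2 fold change was -0.22 ± 0.066 (SE, n = 6 each; edgeR adjusted p = 0.0349), and this call was lost without any of model libraries 2 to 6 or control libraries 3, 5 and 6, with adjusted p from 0.0603 to 0.141. Atp5g1, 1 of 3 genes for the same c-ring protein, had a log2 fold change of -0.24 (adjusted p = 0.0646), against -0.10 (adjusted p = 0.517) for Atp5g2 and 0.069 (adjusted p = 0.72) for Atp5g3. The 17 nuclear genes of the ATP synthase had a median log2 fold change of -0.040, against -0.024 over all genes tested.

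**Figure D1:**
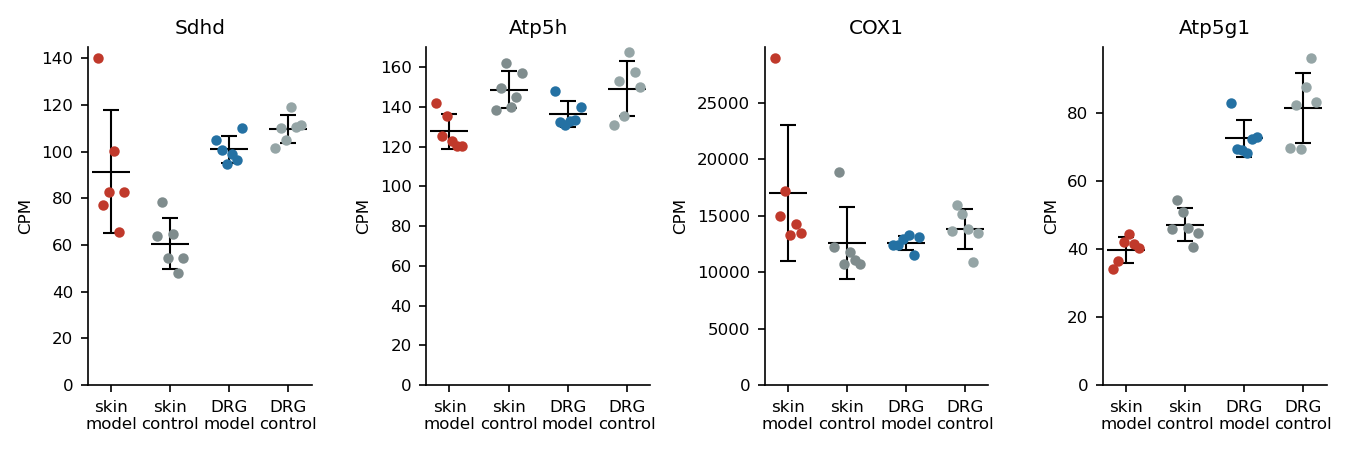
Level of Sdhd, Atp5h, COX1 and Atp5g1 in CPM (y axis, from 0) in the 6 libraries of each group (points), with the mean and SD (black). Sdhd lies higher in most model skin libraries, with 140.2 CPM in 1 of them, and Atp5h lies lower in model skin than in control skin apart from 1 library.

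The genes of mitochondrial DNA lay higher on average in model skin, but 0 of 13 passed with edgeR or with DESeq2, and 0 had an unadjusted p under 0.05, where 35.4% of all genes did. For all 13 the log2 fold change was positive, between 0.14 for ND6 and 0.50 for ND2, with a median of 0.35. Log2 fold changes above 0 made up 47.1% of all genes tested in skin. COX1, the catalytic subunit of complex IV (MT:5328-6872), had 28959, 14932, 17178, 13300, 14277 and 13487 CPM in model skin, against 12246, 18899, 10729, 11742.5, 11115 and 10683 CPM in control skin. Apart from model library 1 and control library 2 the model libraries all lay above the controls. Its log2 fold change was 0.44 with a 95% interval from -0.052 to 0.93 (adjusted p = 0.186).

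In ATP8, ND2 and CYTB too, model library 1 and control library 2 were the highest of their groups. ATP8, an ATP synthase subunit, had a lowest, median and highest level of 1078, 1226 and 2852 CPM in model skin and 886.6, 980.3 and 1689 CPM in control skin (log2 fold change 0.47, adjusted p = 0.202). ND2, a proton-pumping subunit of complex I, had 1661, 1986 and 4999 CPM in model skin and 1419, 1547 and 2719 CPM in control skin (log2 fold change 0.50, adjusted p = 0.225). CYTB, the mitochondrially encoded subunit of complex III, had 4564, 5222 and 10625 CPM in model skin and 4245, 4449 and 7270 CPM in control skin (log2 fold change 0.32, adjusted p = 0.339). The remaining ones had log2 fold changes of 0.38 for COX2, 0.37 for COX3, 0.36 for ND4L, 0.35 for ND4, 0.35 for ND3, 0.31 for ATP6, 0.27 for ND1 and 0.175 for ND5, with adjusted p from 0.234 to 0.544. Neighbouring genes of mitochondrial DNA overlap, ATP8 with ATP6 and ND4L with ND4, and ND6 lies on the opposite strand. How the counting treated strand was not stated, so reads in such places cannot be assigned with certainty.

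Together the 13 genes took 8.54, 4.80, 5.08, 4.10, 4.39 and 4.08% of the protein-coding counts in model skin libraries, against 3.71, 6.10, 3.47, 3.625, 3.36 and 3.41% in control skin libraries. The mean share was 5.17% ± 1.70 in model skin and 3.95% ± 1.06 in control skin (SD, n = 6 each). The highest library of each group, model library 1 and control library 2, stood far from the other 5. Model library 1 also had the highest adipocyte markers, 16477 CPM in sum. Control library 2 had the highest mature muscle markers of its group, 16025 CPM in sum against 4351 to 9268 CPM in the other controls, and the lowest hair shaft markers, 1175 CPM against 32917 to 50936 CPM. The part of these cell types in the share was not tested.

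Without these 2 libraries, the mitochondrially encoded share ran from 4.08 to 5.08% in model skin and from 3.36 to 3.71% in control skin, with no overlap. Then 9 members rose and 2 fell, against 16.6% of all genes called higher and 9.86% called lower in the same fit. The 9 were Sdhd, ATP8, COX1, COX2, COX3, ND2, ND4L, Ndufb3 and Ndufa4l2, and the 2 were Atp5h and Uqcrb. COX1 had a log2 fold change of 0.37 in that fit (edgeR adjusted p = 0.0332). The 2 libraries were left out after the data were seen and because they were the highest of their groups in this share, which narrows the spread of these genes by construction, so the calls carry no independent weight. With the adipocyte marker level as a covariate in all 12 libraries, the median log2 fold change of the 13 genes was -0.34, and of all 106 members 44 lay lower at an unadjusted p under 0.05, where 2.14% of all genes did. That fit called 0 members and 0.0358% of all genes. That covariate was itself higher in most model libraries, so what the fit assigns to it and to the model cannot be told apart.

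**Figure D2:**
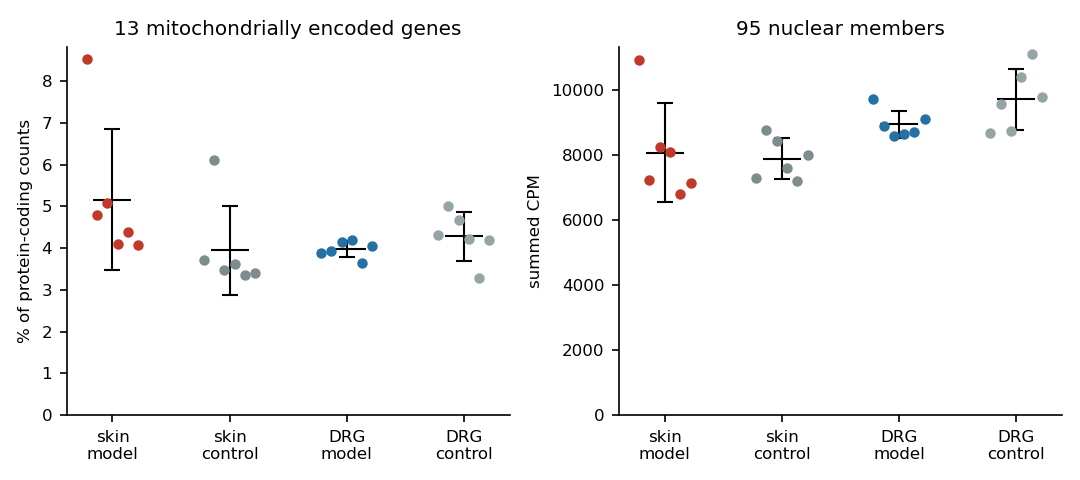
Share of protein-coding counts held by the 13 mitochondrially encoded genes (left, in %) and summed level of the 95 nuclear members (right, in CPM) in each library (points), with mean and SD (black) of 6 libraries. Both y axes start at 0. One model skin library reaches 8.54% and 10937 CPM, and one control skin library reaches 6.10%.

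Apart from Sdhd and Atp5h no nuclear gene passed in skin. The 93 tested had a median log2 fold change of 0.034 between model and control skin, and 59 of them were positive. These signs rested on model library 1: over all 106 members 72 were positive and 34 negative, against 36 positive and 70 negative without that library, when the nuclear median was -0.073. With 1 surrogate variable 53 were positive and 53 negative. Their summed level was 10937, 7220, 8234, 8105, 6797 and 7149 CPM in model skin, against 7282, 8782, 8421, 7602, 7215 and 7994 CPM in control skin, with library 1 of the model the single high value. By complex the median log2 fold change of nuclear genes was 0.048 for the 38 of complex I, 0.002 for the 8 assembly factors of complex I, 0.27 for the 4 of complex II, 0.049 for the 8 of complex III and 0.044 for the 18 tested of complex IV. Within a group the median coefficient of variation of the nuclear members, tissue isoforms left out, was 20.2% in model skin and 10.6% in control skin. That of the 13 mitochondrially encoded genes was 37.9% in model skin and 25.4% in control skin.

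Isoforms of complex IV found mainly in muscle were not called in skin and varied widely between libraries. With 1 surrogate variable Cox6a2 (log2 fold change -1.27, edgeR adjusted p = 0.0401) and Cox7a1 (-1.06, adjusted p = 0.0115) were called lower, and Cox7a1 also with all 24 libraries in 1 fit (-0.81, adjusted p = 0.0416). Cox6a2, the muscle form of subunit VIa, had a lowest, median and highest level of 2.70, 8.35 and 19.4 CPM in model skin and 9.49, 13.9 and 38.2 CPM in control skin (log2 fold change -0.79, adjusted p = 0.255). Cox7a1, the muscle form of subunit VIIa, had 2.76, 4.92 and 6.04 CPM in model skin and 3.85, 6.17 and 18.3 CPM in control skin (log2 fold change -0.78, adjusted p = 0.165). Cox8b, which in mice is found in muscle and brown fat, had 5.77, 11.7 and 34.4 CPM in model skin and 4.85, 6.82 and 20.8 CPM in control skin (log2 fold change 0.64, adjusted p = 0.363). The groups overlapped for each of these. Without model library 1 and control library 2, the log2 fold change was -0.27 for Cox6a2, -0.38 for Cox7a1 and 0.59 for Cox8b, with adjusted p from 0.187 to 0.685.

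The muscle form made up 9.30% ± 7.37 of the Cox6a2 and Cox6a1 counts in model skin and 14.8% ± 8.79 in control skin, 5.59% ± 1.90 of the Cox7a1 and Cox7a2 counts in model skin and 9.41% ± 5.255 in control skin, and 9.22% ± 3.80 of the Cox8b and Cox8a counts in model skin and 7.84% ± 5.19 in control skin (SD, n = 6 each). Without the same 2 libraries the Cox6a2 share was 10.55% in model skin and 11.4% in control skin, that of Cox7a1 5.80% in model skin and 7.36% in control skin, and that of Cox8b 8.10% in model skin and 5.85% in control skin (n = 5 each). Of 14 mature muscle markers tested, 0 were called in skin, where 19.9% of all genes were, and 1 had an unadjusted p under 0.05, where 35.4% did. Their summed level ran from 1618 to 15416 CPM in model skin and from 4351 to 16025 CPM in control skin. Of 9 markers of forming or regenerating muscle 7 rose in model skin, where 14.1% of all genes did, with a median log2 fold change of 4.20 over the list. The summed level of these 9 overlapped, from 248 to 705.8 CPM in model skin and from 186.9 to 600.2 CPM in control skin. The part of muscle in the isoform shares was not tested.

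**Figure D3:**
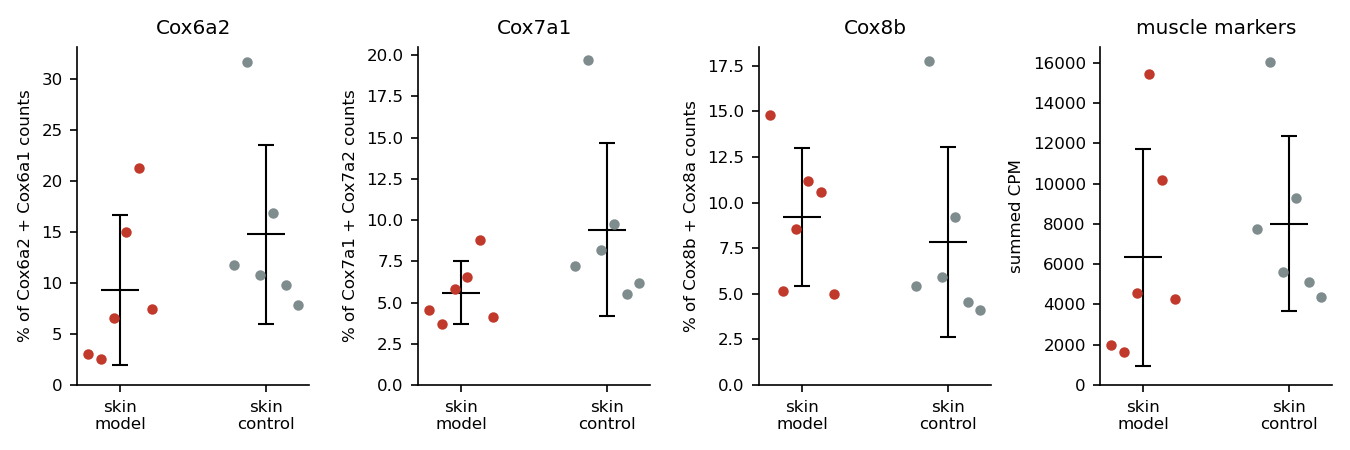
Share of the muscle form in the counts of a subunit pair (Cox6a2, Cox7a1, Cox8b; y axis in %) and summed level of 15 mature muscle markers (right, in CPM) in the 6 model and 6 control skin libraries (points), with mean and SD (black). The groups overlap in each panel, and 1 control library holds the highest share in all 3 pairs, up to 31.6% for Cox6a2.

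Other isoform sets gave no call in skin. Ndufa4l2, a paralogue of the complex IV subunit Ndufa4 known to be induced by hypoxia, had 37.71, 12.15, 39.36, 37.51, 41.52 and 32.99 CPM in model skin, against 24.28, 63.99, 15.19, 16.45, 15.23 and 12.64 CPM in control skin. Model library 2 and control library 2 went against the rest (log2 fold change 0.45, edgeR adjusted p = 0.475), and without control library 2 the log2 fold change was 1.0 (adjusted p = 0.0205). Ndufa4 itself had a log2 fold change of -0.010 (adjusted p = 0.967). Cox4i2, the form of subunit IV found in lung and under hypoxia, had -0.47 (adjusted p = 0.235), against 0.21 for Cox4i1 (adjusted p = 0.261). For Cox6b2, a testis form, it was -0.039 (adjusted p = 0.875), against 0.062 for Cox6b1 (adjusted p = 0.718). Cox6a1 had 0.097, Cox7a2 0.13, Cox7b 0.047 and Cox8a 0.27, with adjusted p from 0.271 to 0.854, and Cox7a2l, which helps to join complexes III and IV, had -0.11 (adjusted p = 0.305).

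In DRG no member passed the test, but nearly all lay slightly lower in the model. Cox7b2, Cox8b and Cox8c had too few counts, and of 105 members tested 0 were called with edgeR, and DESeq2 called 0 too, while 0.0974% of 19509 genes were called in DRG, all of them higher. The log2 fold change was below 0 for 100 of the 105, against 54.4% of all genes tested, and 89 of the 92 nuclear members were below 0. At an unadjusted p under 0.05, 27 members lay lower and 0 higher, where 3.74% of all genes lay lower and 5.6% higher. The median log2 fold change was -0.14 for the nuclear members and -0.12 for the 13 mitochondrially encoded ones, against -0.013 for all genes. These genes vary together between libraries, so their number is not a number of independent measurements.

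Among the nuclear genes with the smallest p, Ndufv2, a core subunit of complex I, had a lowest, median and highest level of 99.2, 107.3 and 117.9 CPM in model DRG and 112.0, 120.1 and 127.9 CPM in control DRG (log2 fold change -0.17, edgeR adjusted p = 0.422). Ndufb5, a membrane-arm subunit, had 55.2, 57.0 and 65.0 CPM in model DRG and 59.4, 66.7 and 71.9 CPM in control DRG (log2 fold change -0.19, adjusted p = 0.433). The assembly factor Ndufaf3 had 16.4, 17.4 and 19.8 CPM in model DRG and 18.7, 20.7 and 22.8 CPM in control DRG (log2 fold change -0.21, adjusted p = 0.441). Uqcrc2, a core protein of complex III, had 158.8, 162.4 and 176.6 CPM in model DRG and 170.4, 180.6 and 195.7 CPM in control DRG (log2 fold change -0.14, adjusted p = 0.46). In each of these the groups overlapped. The nuclear genes above 0 were Ndufaf6, an assembly factor (0.041), Cox6b2 (0.23) and Cox6a2 (0.185), the last 2 at levels of at most 2.23 CPM.

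The 13 mitochondrially encoded genes had a median coefficient of variation of 6.44% in model DRG and 16.6% in control DRG. COX1 had 12382, 12359, 12909, 13246, 11527 and 13069 CPM in model DRG, against 13681, 15926, 15151, 13809, 10870 and 13501 CPM in control DRG. Control library 5 was below all model libraries, and the other controls were above them all (log2 fold change -0.14, edgeR adjusted p = 0.617). COX3, another core subunit of complex IV, had -0.19 (adjusted p = 0.491) and COX2 -0.16 (adjusted p = 0.51). ND5 and ND6, subunits of complex I, were the 2 above 0, at 0.10 (adjusted p = 0.763) and 0.17 (adjusted p = 0.816), and the remaining 8 lay between -0.17 and -0.081 with adjusted p from 0.612 to 0.872. The 13 genes took 3.97% ± 0.197 of protein-coding counts in model DRG and 4.28% ± 0.585 in control DRG (SD, n = 6 each).

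**Figure D4:**
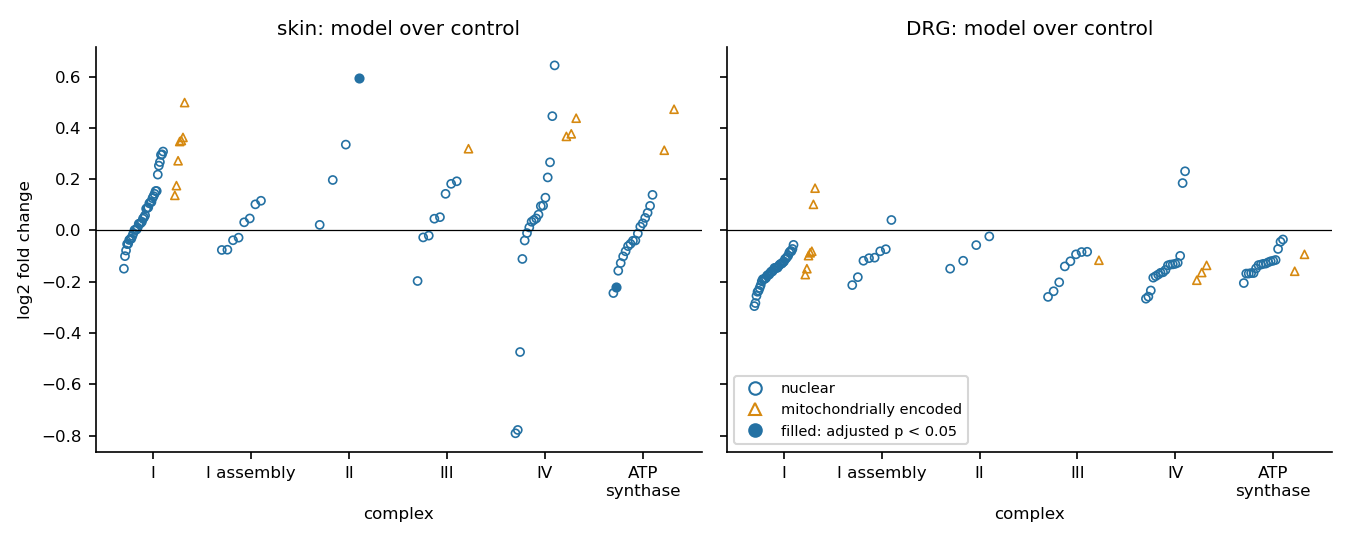
Log2 fold change of model over control (y axis) for each tested member by complex (x axis), in skin (left) and in DRG (right). Circles are nuclear and triangles mitochondrially encoded genes, filled where the adjusted p was under 0.05. In skin the mitochondrially encoded genes lie above 0 and Sdhd and Atp5h are filled, and in DRG 100 of 105 lie below 0 with none filled.

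The count of 27 depended on single libraries. It was 11 without model library 5, 15 without model library 3, 16 without model library 4, 17 without control library 2 and 12 without control library 4, and it was 48 without model library 1, 57 without control library 1 and 51 without control library 3. It was 2 with all 24 libraries in 1 fit, 6 with 1 surrogate variable and 8 with limma on log2(TPM + 1). The share of all genes lower at that p moved too, between 2.34 and 2.92% in the first 5 of these fits, between 4.53 and 5.49% in the next 3 and between 1.33 and 1.67% in the last 3. Other short transcripts also lay lower in model DRG. Of 455 other genes of at least 10 CPM whose length, implied by the authors' counts and FPKM, was under 1000 bases, 388 had a log2 fold change below 0, with a median of -0.13, and the 10993 longer ones had a median of -0.005. Of the nuclear members 59 of 93 were under that length. Cytosolic ribosomal protein genes, 86 of 91 below 0, had a median of -0.11, and mitochondrial ribosomal protein genes, 77 of 78 below 0, had -0.105. The part of transcript length was not tested. Sensory neuron markers were called in 0 of 11 cases and glial markers in 0 of 8, with 1 of these 19 at an unadjusted p under 0.05, where 9.34% of all genes were. Of the glial markers 6 lay below 0 and 2 above, with a median log2 fold change of -0.14. Of the neuron markers 9 lay below 0 and 2 above, with a median of -0.063. With 0.0974% of all genes called in DRG, 0 calls cannot show that cell composition was unchanged. The part of cell composition was not tested.

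Among the members the response differed between tissues for Sdhd. The skin response minus the DRG response was tested in 1 fit of 24 libraries for 105 members, and 1 was called, on the higher side, against 17.1% of 17251 genes called in all and 10.6% called higher. Sdhd had a difference of 0.67 ± 0.18 on the log2 scale (SE; edgeR adjusted p = 0.0136). In DRG it had 105.1, 100.8, 94.62, 98.78, 96.37 and 110.2 CPM in the model, against 101.4, 110.3, 104.8, 119.0, 110.6 and 111.3 CPM in control (log2 fold change -0.12, adjusted p = 0.513). The 3 complex IV genes of mitochondrial DNA differed by 0.53 for COX1 (adjusted p = 0.109), 0.50 for COX2 (adjusted p = 0.122) and 0.52 for COX3 (adjusted p = 0.148). Without skin control library 2 the count was 9 of 105, while 26.7% of all genes were called, and without skin model library 5 it was 4 of 105, while 23.8% were.

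Control skin held less of most members than control DRG. Of 106 tested, 8 were higher and 64 lower in skin, where 41.4% of 20448 genes were higher and 42% lower. Of the 106 tested, 43 lay wholly lower in skin and 6 wholly higher, without overlap of libraries. Of all genes tested, 36.1% lay wholly lower and 33.3% wholly higher in skin. The median log2 fold change of skin over DRG was -0.40 for the nuclear members and -0.14 for those of mitochondrial DNA, against -0.008 for all genes. Values between the tissues rest on the assumption that most genes do not differ, and on the authors' TPM the nuclear median was -0.60 while that of all genes was -0.13.

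Complex I was lower in skin nearly throughout. Of its 38 nuclear genes 32 were lower, the 2 copies of Ndufb4 among them, and 0 higher, with a median log2 fold change of -0.56. All 8 assembly factors were lower, with a median of -0.93. Ndufaf5, an assembly factor that modifies the core subunit Ndufs7, had 6.95 ± 1.36 CPM in skin and 30.5 ± 3.22 CPM in DRG (SD, n = 6 each), 4.385-fold lower in skin (edgeR adjusted p = 3.57e-09). Ndufv3, an accessory subunit of the NADH-binding part, had 32.6 ± 5.85 CPM in skin and 79.25 ± 10.3 CPM in DRG (2.43-fold lower, adjusted p = 3.42e-07). Ndufs1, the largest core subunit of the peripheral arm, had 119 ± 5.88 CPM in skin and 192.7 ± 10.4 CPM in DRG (1.62-fold lower, adjusted p = 8.08e-08). For Ndufaf2, Ndufaf3 and Ndufaf7 the log2 fold change was between -1.16 and -1.13, and for the accessory subunits Ndufa9, Ndufa10 and Ndufb6 it was between -0.93 and -0.79. Of the mitochondrially encoded subunits ND4 (log2 fold change -0.46, adjusted p = 0.0175) and ND4L (-0.46, adjusted p = 0.00675) were lower and the remaining 5 were not called.

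Most of complex II was lower in skin and most of complex III was not called. Sdha had 178 ± 8.32 CPM in skin and 312.9 ± 23.1 CPM in DRG (log2 fold change -0.81, adjusted p = 4.27e-08), and Sdhb (-0.51, adjusted p = 0.000129) and Sdhd (-0.91, adjusted p = 1.08e-06) were lower too, while Sdhc had 72.5 ± 7.0 CPM in skin and 68.7 ± 5.26 CPM in DRG (0.079, adjusted p = 0.338). In complex III, 1 of 9 genes was lower, Uqcrc2 (-0.24, adjusted p = 0.00256), and 1 higher, Uqcrb, a small subunit at the ubiquinone site (0.69, adjusted p = 9.8e-07).

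In complex IV the ubiquitous and the tissue forms went opposite ways. Of 11 ubiquitous or main forms 10 were lower in skin, and of 6 tissue or condition forms tested 5 were higher. Cox6a2 had 17.2 ± 9.80 CPM in skin and 0.215 ± 0.0952 CPM in DRG (log2 fold change 6.31, adjusted p = 9.85e-09), against 100.3 ± 14.45 and 165.0 ± 35.8 CPM for Cox6a1 in skin and in DRG (-0.72, adjusted p = 0.000321). Cox8b had 8.79 ± 5.61 CPM in skin and 0.0707 ± 0.0975 CPM in DRG (6.92, adjusted p = 9.03e-07), where 3 of 6 DRG libraries had no count, and Cox8a had -0.72 (adjusted p = 2.85e-05). Cox7a1 had a log2 fold change of 2.48 (adjusted p = 2.06e-05) and Cox7a2 -0.68 (adjusted p = 4.3e-05). Ndufa4l2 had 23.7 ± 18.2 CPM in skin and 0.880 ± 0.203 CPM in DRG (4.74, adjusted p = 2.26e-07), against -0.85 (adjusted p = 2.82e-06) for Ndufa4. Cox4i2 was higher (1.06, adjusted p = 0.0027) and Cox4i1 lower (-0.45, adjusted p = 0.00352). Mature muscle markers were higher in skin in 14 of 15 cases, and their part in these levels was not tested.

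The 3 genes of the c-ring protein also went different ways. Atp5g1 was lower in skin, with 45.9 ± 4.09 CPM in skin and 82.4 ± 10.5 CPM in DRG (log2 fold change -0.85, adjusted p = 1.36e-06), Atp5g2 was higher, with 97.7 ± 14.4 CPM in skin and 57.1 ± 4.29 CPM in DRG (0.77, adjusted p = 4.93e-06), and Atp5g3 was not called (-0.17, adjusted p = 0.0534). Atp5e, the small epsilon subunit, was the other ATP synthase gene that was higher in skin (0.43, adjusted p = 0.00616), and 8 of the 17 nuclear ATP synthase genes were lower. Per length, in the authors' TPM, genes of mitochondrial DNA averaged between 455.4 TPM for ND6 and 16904 TPM for COX1 in control skin, and between 418.7 TPM for ND6 and 22111 TPM for COX1 in control DRG. Among nuclear members Atp5b, the catalytic beta subunit, averaged 1004 TPM in control skin and 1378 TPM in control DRG, and Ndufa4 627.4 TPM in control skin and 1290 TPM in control DRG.

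**Figure D5:**
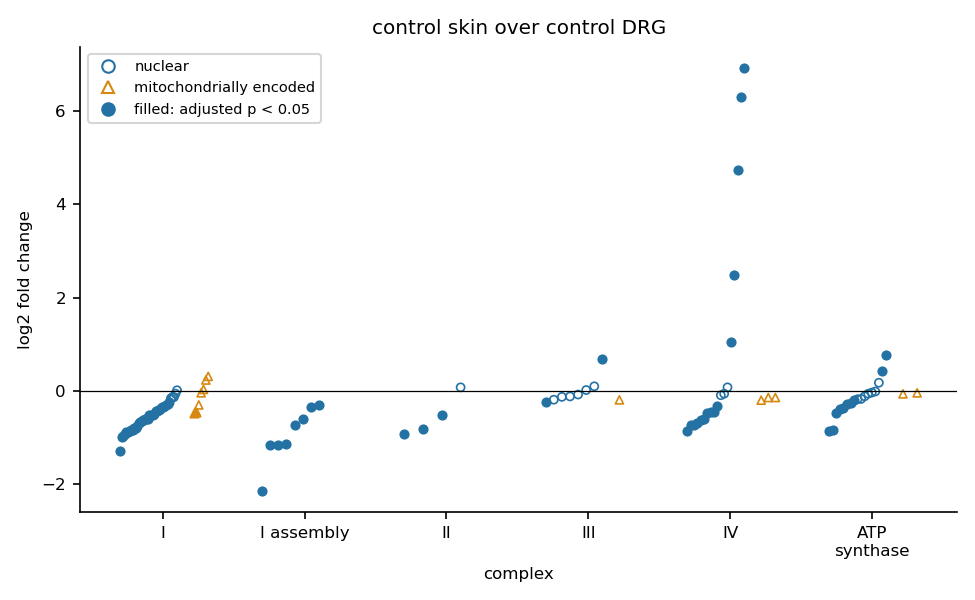
Log2 fold change of control skin over control DRG (y axis) for each tested member by complex (x axis). Circles are nuclear and triangles mitochondrially encoded genes, filled where the adjusted p was under 0.05. The 5 tissue forms of complex IV that were higher in skin stand above 1, and most filled points of complex I and its assembly factors lie below 0.

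Lists of neighbouring pathways held some calls in skin. Beside them stand the shares of all genes, 14.1% higher and 5.82% lower, and nothing particular to a pathway is read from these counts. In model skin 5 of 24 genes of glycolysis and lactate rose and 0 fell, among them the glucose transporter Slc2a3 (log2 fold change 1.10, edgeR adjusted p = 0.00233), the enolase Eno2 (0.92, adjusted p = 0.00323) and Pfkfb3, an activator of glycolysis (1.24, adjusted p = 0.0102). In the tricarboxylic acid cycle and pyruvate entry 2 of 24 rose, Idh2 (0.50, adjusted p = 0.0382) and the pyruvate carrier subunit Mpc1 (1.35, adjusted p = 0.0391), and 1 fell, the pyruvate dehydrogenase kinase Pdk3 (-0.51, adjusted p = 0.0106). Of 17 mitochondrial antioxidant and stress genes 3 rose, with Gpx1, a glutathione peroxidase, at 0.93 (adjusted p = 0.00223), and 1 fell. Of 14 hypoxia-induced genes 2 rose, Vegfa (0.86, adjusted p = 0.0138) and P4ha1 (0.84, adjusted p = 0.00442), and 2 fell. Over these 14 the log2 fold change ran from -0.94 to 0.86, with a median of 0.079. Macrophage markers rose in 8 of 8 cases and adipocyte markers in 9 of 9, and the part of these cells in the calls was not tested.

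Lists closer to the complexes held at most 2 called genes each, where 19.9% of all genes were called in skin. Of 20 genes of cytochrome c, coenzyme Q and the flavoprotein electron carriers, 1 rose, the glycerol-3-phosphate dehydrogenase Gpd2 (0.88, adjusted p = 0.035), and 1 fell, Coq4 of coenzyme Q synthesis (-0.50, adjusted p = 0.0163). Of 45 assembly factors outside the Nduf names 0 rose and 1 fell, Acad9 (-0.43, adjusted p = 0.0459). Of 29 genes of mitochondrial DNA maintenance and expression 0 rose and 1 fell, the helicase Twnk (-0.37, adjusted p = 0.0174). Of 15 nuclear regulators 1 rose, Nfe2l2 (0.30, adjusted p = 0.0164), and 0 fell. Of 16 genes of mitochondrial fatty acid oxidation 0 were called, with 3 at an unadjusted p under 0.05, where 35.4% of all genes were. Of 11 tested genes of adenine nucleotide and phosphate carriers, uncoupling proteins, porins and mitochondrial creatine kinases, 0 were called, with 4 at that p. In DRG 0 genes of these 10 lists were called with edgeR, where 0.0974% of all genes were. Between 0 and 4 genes of a list lay lower in DRG at an unadjusted p under 0.05, where 3.74% of all genes did.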

How the data were processed

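The members and the gene lists were chosen with earlier results of these data known. The authors deposited gene-level read counts, not normalized. TPM and FPKM values, scaled to transcript length and library size, were computed by the authors; TPM served for levels per length and in alternatives, and FPKM for implied lengths. Per the submitters' processing notes, bcl2fastq 2.20.0, Trimmomatic, HISAT2 2.1.0 and StringTie 2.1.3b were used with GRCm38/mm10. The counting tool, strand setting and filters are not given in the sources used here. Groups follow the sample titles. Each comparison was fitted in edgeR 4.0.16 (R 4.3.3) on all genes passing filterByExpr, with TMM scaling, the robust quasi-likelihood F test, two-sided, and Benjamini-Hochberg adjustment, and called at 0.05. The tissue difference used all 24 libraries. The fits were tested on simulated counts. Levels are TMM-scaled CPM within a tissue, and scaled jointly between control tissues. Shares of counts are means over libraries.

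Genes were named by a rule: mitochondrially encoded members, isoform sets, complex II, up to 10 nuclear members with the smallest p and 5 with the largest change among those called in each direction, or 4 with the smallest p where none was called, and up to 3 called members of each pathway list. Atp5b, Ndufb3 and the marker Plin1 were named after their values were seen. Within groups 0 library pairs were duplicates (lowest chi-square per gene 9.13). Coordinates and promoters are RefSeq's for GRCm38.p6. Alternatives used DESeq2 1.42.0, sva 3.50.0 and limma 3.58.1.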

Additional observations from a re-analysis of the deposited data

Results flagged for a closer look

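Of 166 groups of 6 libraries examined, 45 had a library whose gap to the nearest other exceeded Dixon's 95% critical share of the group's range, where chance flags about 1 in 20 groups. These values share libraries: 17 were in model skin library 1 and 18 in control skin library 2.

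Model skin library 1 was the highest of its group in the mitochondrially encoded share, 8.54% of protein-coding counts, with the next library at 5.08%. In CPM it reached 28959 for COX1, 6269 for COX2, 7502 for COX3, 10625 for CYTB, 7903 for ATP6 and 2852 for ATP8. For the mitochondrial genes of complex I it reached 6981 CPM for ND1, 4999 for ND2, 798.5 for ND3, 5705 for ND4 and 949 for ND4L. Among nuclear genes it reached 378.6 CPM for Sdha, 216.1 for Ndufa4, 164.5 for Cox7b and 34.4 for Cox8b, and 10937 CPM for the sum of the nuclear members.

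Control skin library 2 was the highest of its group in the mitochondrially encoded share, 6.10%, with the next library at 3.71%. In CPM it reached 18899 for COX1, 4245 for COX2, 5296 for COX3, 7270 for CYTB, 5581 for ATP6 and 1689 for ATP8. For complex I it reached 4761 CPM for ND1, 2719 for ND2, 4101 for ND4 and 656.8 for ND4L. Among nuclear genes it reached 38.2 CPM for Cox6a2, 18.3 for Cox7a1, 20.8 for Cox8b, 168.2 for Cox7a2l and 63.99 for Ndufa4l2, and shares of 19.7% for Cox7a1 and 17.8% for Cox8b in their pairs. Model skin library 2 was the lowest of its group for Ndufa4l2, at 12.15 CPM.

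In DRG the gaps concerned single genes. Model library 1 was highest for Atp5g1 (83.15 CPM), Atp5g2 (58.2 CPM) and Cox6a1 (162.2 CPM), model library 6 for Ndufb5 (65.02 CPM), and model library 5 was lowest for ATP8 (875.6 CPM) and COX2 (2474 CPM). Control library 5 was lowest for ATP8 (642.7 CPM), and control library 2 was highest for the share of Cox6a2 (0.252%) and of Cox8b (0.149%) in their pairs, both of few counts.

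The response of Sdhd differed between the tissues by 0.667 on the log2 scale in the test of the difference itself (edgeR adjusted p = 0.0136).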

How the results depend on the processing

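In skin the counts of members called depended on the setting. Beside 1 higher and 1 lower in the reported fit, 0 were higher with 1 surrogate variable or an adipocyte marker covariate. With a muscle marker covariate Sdhd was still called higher and Atp5h lower, and 24.9% of all genes were called. The number lower was 2 with DESeq2, RLE factors or a filter at 1 CPM in 6 libraries, 5 with all 24 libraries in 1 fit, 3 with 1 surrogate variable, and 0 without a filter, with limma on log2(TPM + 1) or with the adipocyte covariate. Without model library 1 and control library 2, a setting added after the data were seen, 9 were higher and 2 lower. Leaving out 1 library gave 0 to 3 higher and 0 to 2 lower. With the adipocyte covariate the median log2 fold change was -0.31 for nuclear and -0.34 for mitochondrially encoded members, and Sdhd had -0.007; the cause was not tested. In DRG 0 members were called in each setting run. For the tissue difference leaving out 1 library gave 1 to 9 higher.

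Between control tissues the nuclear median was -0.60 with TPM. In TPM the mitochondrially encoded share was 11.3% in model skin, 8.71% in control skin, 10.5% in model DRG and 11.02% in control DRG, the Cox7a1 share was 13.2% in model skin, 18.8% in control skin, 2.67% in model DRG and 2.825% in control DRG, and the Cox8b share was 13.15% in model skin; TPM divides by length, which differs between these genes.

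Same-numbered libraries did not deviate together. Between skin and DRG of a condition the correlations ran from -0.144 to 0.0789, which cannot show whether they came from the same animal. Between model and control of a tissue they ran from -0.513 to 0.257. The library names carry the same numbers in skin and in DRG, so shared animals are possible. The reported fits used no pairing. Within skin or within DRG, a replicate block joined the model and control libraries of the same replicate number in the titles, so there it is no check of shared animals. In the tissue difference and between control tissues, the block joined the skin and DRG libraries of the same condition and number. With the block 1 member was higher and 0 lower in skin. In DRG 11 members then lay lower at an unadjusted p under 0.05. No other count of members called changed by over 1.5 times. Over all genes the block gave 540 lower in skin against 1137, 6 called in DRG against 19, and 669 lower in the tissue difference against 1110. For the genes named, 57 values in skin, 2 in DRG, 31 of the tissue difference and 20 between control tissues changed sign without a call in either fit. Depth limited Cox7b2, Cox8c and, in DRG, Cox8b.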
